A study of Komagataella pastoris with 6 samples.

Results

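*Komagataella phaffii*, a yeast widely used to make recombinant proteins, can live on methanol, and 8 genes of 5427 in the count table are described here: the 7 annotated as enzymes of methanol use and the gene that follows *AOX1* in the table. The enzyme genes were those whose descriptions name an alcohol oxidase, a dihydroxyacetone synthase, an S-(hydroxymethyl)glutathione dehydrogenase, an S-formylglutathione hydrolase or a formate dehydrogenase. They were *AOX1* (gene4497), *AOX2* (gene5263), *DAS1* (gene3442), *DAS2* (gene3440), *FLD1* (gene3220), *FGH1* (gene3400) and *FDH1* (gene3324), and the neighbour of *AOX1* was gene4498. The enzyme genes were matched by description and gene4498 was taken for its place beside *AOX1*, with earlier results of these data known. All 8 passed the filter on low counts that kept 5426 genes.

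In methylotrophic yeasts, alcohol oxidase oxidises methanol to formaldehyde and hydrogen peroxide inside peroxisomes. Formaldehyde is then either joined to xylulose 5-phosphate by dihydroxyacetone synthase, which leads its carbon into sugar phosphates, or bound to glutathione and oxidised in the cytosol to formate and carbon dioxide, which yields NADH. The promoter of *AOX1* is known as one that methanol switches on and that glucose and glycerol keep off, and it drives many expression vectors of this yeast.

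The study asked how histidine, made in the cell or taken up, alters the transcriptome of cells cultured in YPA, a medium of yeast extract and peptone with acetate as the carbon source. No methanol was named for any culture. *GS115* carries *his4* and cannot make histidine, *X33* carries *HIS4* and can, and the labels call both wild type in another field. Cultures were harvested at 24 h, and libraries A and B came from *GS115* without added histidine (*GS115*-YPA), C and D from *X33* in the same medium (*X33*-YPA), and E and F from *GS115* given 650 µM histidine (*GS115*-YPAH5x).

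The libraries held 32194047 to 43447246 counts. With 2 libraries in a group, and nothing in the labels to say that they came from separate cultures, p-values measure the spread between duplicates. The transcript of *HIS4* itself (gene978) was counted in every library, at 181 to 501 CPM (counts scaled to library size by the TMM method), and was lowest in F and highest in B, both of them *GS115*, so its level did not check the strain labels. Both comparisons with *GS115*-YPA use libraries A and B, so their fold changes are not independent of each other. The study stated that *X33* and *GS115* differ only at *HIS4*, and reported that expressing *HIS4* in *GS115* restored its growth in YPA. No such complemented strain is among the libraries, so *HIS4* cannot be told apart here from any other difference between the strains. *X33*-YPA and *GS115*-YPAH5x differ both in strain and in added histidine, and these cannot be told apart in their comparison. The study reported that *GS115* grew less well in YPA than *X33*, and that added histidine reversed this defect. In the comparisons with *GS115*-YPA, histidine thus cannot be told apart from growth and culture stage at 24 h. RNA was measured from whole cultures, so a change in the share of cells that express a gene and a change in RNA per cell cannot be told apart.

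*AOX1*, which encodes the main alcohol oxidase of methanol-grown cells, was upregulated both in *X33*-YPA and in *GS115*-YPAH5x, but to very different levels. Libraries A and B of *GS115*-YPA had 10.7 and 10.9 CPM of *AOX1*, C and D of *X33*-YPA had 371 and 430 CPM, and E and F of *GS115*-YPAH5x had 50.9 and 43.9 CPM. The groups did not overlap, and duplicates lay close together beside the distance between groups. The means were 10.8 ± 0.159 CPM (SD, n = 2) for *GS115*-YPA, 400.4 ± 41.3 for *X33*-YPA and 47.4 ± 4.99 for *GS115*-YPAH5x, resting on 410 counts in library A at the least and 18865 in library D at the most. In *X33*-YPA the log2 fold change against *GS115*-YPA was 5.21 ± 0.17 (SE, n = 2 a group), 37.1-fold, with an edgeR adjusted p of 6.66e-08, and only 2 of the 5426 genes tested had a larger one. In *GS115*-YPAH5x it was 2.13 ± 0.15, 4.39-fold, with an edgeR adjusted p of 3.23e-06, which put *AOX1* at place 116 from the highest. Set directly against *GS115*-YPAH5x, *X33*-YPA was higher by 3.08 ± 0.16 on the log2 scale, 8.44-fold, with an edgeR adjusted p of 6.85e-06.

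**Figure D1:**
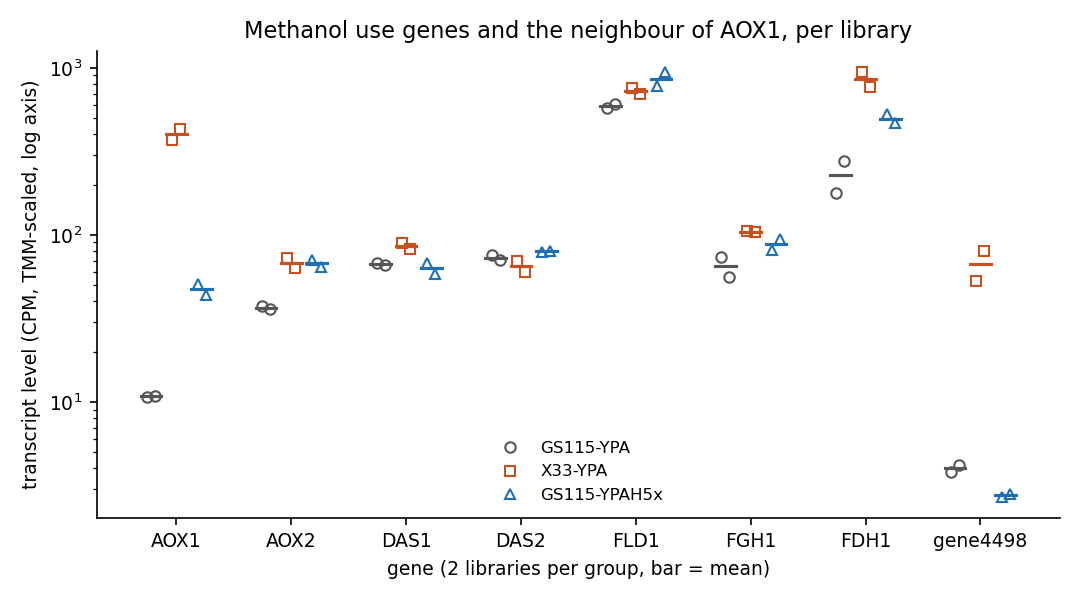
Transcript level in CPM (log axis) of the 7 enzyme genes and of gene4498, the neighbour of *AOX1*, with 1 point for each of the 2 libraries of a group and a bar at the group mean. The *AOX1* points sit near 10.8 CPM in *GS115*-YPA, 47.4 CPM in *GS115*-YPAH5x and 400.4 CPM in *X33*-YPA, while gene4498 is at 52.6 and 80.4 CPM in *X33*-YPA and at 2.71 to 4.19 CPM in the 4 *GS115* libraries.

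In *X33*-YPA against *GS115*-YPA, 6 of the 8 genes were called higher at an adjusted p under 0.05, where 33.4% of all genes tested were called higher, 32.8% lower and 66.2% in either direction. In *GS115*-YPAH5x against *GS115*-YPA, 5 of the 8 were called higher, beside 30.7% higher, 29.1% lower and 59.8% in either direction over all genes. In *X33*-YPA against *GS115*-YPAH5x, 4 of the 8 were called higher, beside 19.8% higher, 21.6% lower and 41.4% in either direction. Leaving out library F lowered the count in the second comparison, and leaving out C or F that in the third. Those fits leave 1 library in a group, and no share over all genes stands beside them. None of the 8 was called lower by edgeR in any of the comparisons, nor by DESeq2 or limma-voom, and at an unadjusted p under 0.05 edgeR gave 0, 1 and 1 in the same order. The study's threshold of an absolute log2 fold change of 2 was passed upward by 2 of the 8 in the first comparison, beside 2.54% of all genes upward and 4.26% downward, and by 1 of the 8 in the second, beside 2.62% and 2.71%.

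In the direct comparison, *AOX1* and the gene beside it were the only genes past the fold threshold in the upward direction. Called higher in *X33*-YPA than in *GS115*-YPAH5x with a log2 fold change of 2 or more were 2 of 5426 genes, 0.0369%, and these were *AOX1* and gene4498. In the other direction 40 genes, 0.737%, passed the same threshold, and the lower calls reached sizes above that of *AOX1*, as in gene5265 at -3.90. The next gene in order of fold change, gene3991, annotated as a conserved predicted protein, was just under the threshold at 1.96 with an edgeR adjusted p of 0.000719. Both *AOX1* and gene4498 stayed past the threshold under all 17 other settings tried, while the number of genes past it ranged from 2 to 5. It was 5 without library E, 3 without library D, 3 with upper-quartile scaling and 4 with library totals alone.

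**Figure D2:**
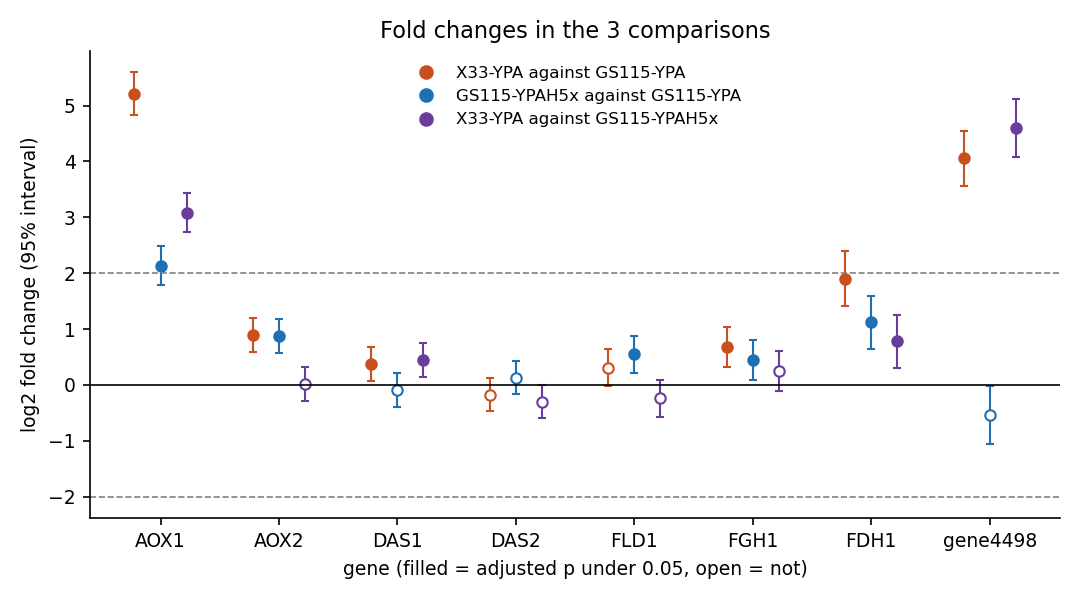
Log2 fold change of each gene in the 3 comparisons, with 95% intervals from the edgeR fit, filled points for an adjusted p under 0.05 and dashed lines at the fold threshold of 2. *AOX1* lies above 2 in all 3 comparisons (5.21, 2.13 and 3.08), gene4498 does so in the 2 that involve *X33*-YPA (4.05 and 4.59), and the other 6 genes stay below 2.

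*AOX2* encodes the second alcohol oxidase, which accounts for the smaller part of the activity in methanol-grown cells. For *AOX2*, libraries A and B of *GS115*-YPA had 37.3 and 36.0 CPM, C and D of *X33*-YPA had 72.7 and 63.7 CPM, and E and F of *GS115*-YPAH5x had 70.8 and 64.1 CPM. *X33*-YPA and *GS115*-YPAH5x both lay above *GS115*-YPA, and they overlapped with each other. The log2 fold change against *GS115*-YPA was 0.90 ± 0.13 for *X33*-YPA and 0.88 ± 0.13 for *GS115*-YPAH5x, with edgeR adjusted p-values of 0.00025 and 0.000369. Between *X33*-YPA and *GS115*-YPAH5x it was 0.016, with a 95% interval of -0.28 to 0.31 and an edgeR adjusted p of 0.932.

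As a share of the counts of both oxidase genes in a library, *AOX1* made up 22.3% and 23.2% in A and B, 83.6% and 87.1% in C and D, and 41.8% and 40.6% in E and F. The share was lowest in *GS115*-YPA and highest in *X33*-YPA, and the groups did not overlap. Counts were not corrected for gene length, so the share compares libraries and not the genes. The 95% Wilson intervals, which cover counting error only, reached from 20.4% to 24.2% in library A, and no interval of a group touched that of another group. *AOX1* and *AOX2* are close copies, and the treatment of reads that match both was not given in the sources used here. With the counts of both summed into 1 feature, the log2 fold changes were 3.30 for *X33*-YPA, 1.27 for *GS115*-YPAH5x and 2.03 between them, all past the edgeR test.

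**Figure D3:**
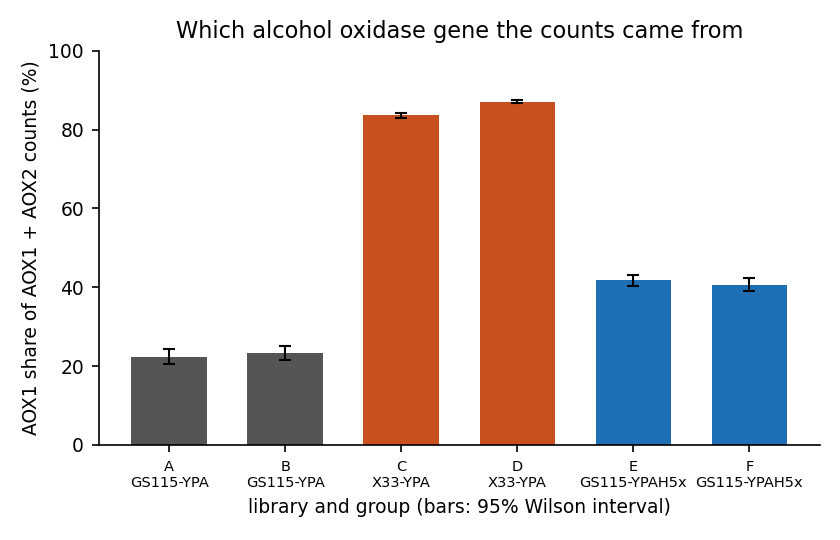
Share of the counts of *AOX1* and *AOX2* together that fell on *AOX1* in each of the 6 libraries (bars, percent), with 95% Wilson intervals. The share was 22.3% and 23.2% in *GS115*-YPA, 40.6% to 41.8% in *GS115*-YPAH5x and 83.6% to 87.1% in *X33*-YPA.

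The dihydroxyacetone synthases, which assimilate formaldehyde in peroxisomes, moved little. For *DAS1*, libraries A and B of *GS115*-YPA had 68.0 and 65.6 CPM, C and D of *X33*-YPA had 89.4 and 82.8 CPM, and E and F of *GS115*-YPAH5x had 68.0 and 57.9 CPM. *X33*-YPA lay highest, and the *GS115* groups overlapped. The log2 fold change of *DAS1* for *X33*-YPA against *GS115*-YPA was 0.37 ± 0.14 with an edgeR adjusted p of 0.0361, a call that was lost on leaving out any 1 of the 6 libraries (0.27 to 0.38). Against *GS115*-YPAH5x it was 0.45 ± 0.14 with an edgeR adjusted p of 0.0248, lost without C, D, E or F (0.33 to 0.57). Between *GS115*-YPAH5x and *GS115*-YPA the log2 fold change of *DAS1* was -0.084, with a 95% interval of -0.39 to 0.22.

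For *DAS2*, the second copy, libraries A and B of *GS115*-YPA had 75.8 and 70.5 CPM, C and D of *X33*-YPA had 69.3 and 60.3 CPM, and E and F of *GS115*-YPAH5x had 79.3 and 80.3 CPM. *X33*-YPA lay lowest, the reverse of its place for *DAS1*. No comparison of *DAS2* passed the test, and its log2 fold changes were -0.17 for *X33*-YPA, 0.13 for *GS115*-YPAH5x and -0.30 between them, the last called lower without library A (-0.30) or B (-0.30). The sum of both copies averaged 140 CPM for *GS115*-YPA, 151 for *X33*-YPA and 143 for *GS115*-YPAH5x. With the counts of the copies summed, the log2 fold change for *X33*-YPA against *GS115*-YPA was 0.11 with an edgeR adjusted p of 0.488, a value for the pair and not for either copy. The share of these counts on *DAS1* was 47.3% and 48.2% in A and B, 56.3% and 57.9% in C and D, and 46.2% and 41.9% in E and F.

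Of the 3 enzymes that oxidise formaldehyde to carbon dioxide, the last one moved most. *FDH1* encodes formate dehydrogenase, which turns formate into carbon dioxide and reduces NAD. For *FDH1*, libraries A and B of *GS115*-YPA had 178 and 278 CPM, C and D of *X33*-YPA had 938 and 767 CPM, and E and F of *GS115*-YPAH5x had 528 and 465 CPM. The order of the groups was that of *AOX1*, with no overlap, although libraries A and B differed by 1.56-fold. The log2 fold change against *GS115*-YPA was 1.90 ± 0.22 for *X33*-YPA (edgeR adjusted p of 4.22e-05) and 1.12 ± 0.21 for *GS115*-YPAH5x (edgeR adjusted p of 0.00135). Both calls held without any 1 library, at 1.58 to 2.26 and 0.80 to 1.48. Between *X33*-YPA and *GS115*-YPAH5x the log2 fold change was 0.78 ± 0.21 with an edgeR adjusted p of 0.0158, a call that was lost without library C (0.63) or F (0.68).

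*FLD1* encodes the glutathione-dependent formaldehyde dehydrogenase, the first step of this branch. For *FLD1*, libraries A and B of *GS115*-YPA had 571 and 604 CPM, C and D of *X33*-YPA had 757 and 700 CPM, and E and F of *GS115*-YPAH5x had 774 and 943 CPM. *GS115*-YPAH5x lay highest, unlike for *AOX1* and *FDH1*. Its log2 fold change for *GS115*-YPAH5x against *GS115*-YPA was 0.55 ± 0.15 with an edgeR adjusted p of 0.0103, and without library F it was 0.38 and no longer called. For *X33*-YPA it was 0.31 with a 95% interval of -0.024 to 0.64, and between *X33*-YPA and *GS115*-YPAH5x -0.24, with neither past the test.

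*FGH1* encodes S-formylglutathione hydrolase, which releases formate and glutathione. For *FGH1*, libraries A and B of *GS115*-YPA had 73.6 and 56.3 CPM, C and D of *X33*-YPA had 105 and 104 CPM, and E and F of *GS115*-YPAH5x had 81.0 and 95.0 CPM. Its groups did not overlap, and *GS115*-YPA lay lowest. The log2 fold change for *X33*-YPA against *GS115*-YPA was 0.68 ± 0.16 with an edgeR adjusted p of 0.00391. For *GS115*-YPAH5x it was 0.44 ± 0.16 with an edgeR adjusted p of 0.0376, a call that was lost without library B (0.26), C, D, E or F, in the same direction each time. Between *X33*-YPA and *GS115*-YPAH5x it was 0.24, not past the test.

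The neighbour of *AOX1*, gene4498, is annotated as an uncharacterized protein, with a description that joins the *Saccharomyces cerevisiae* proteins YDR514C and Good for full DBP5 activity protein 2. For gene4498, libraries A and B of *GS115*-YPA had 3.80 and 4.19 CPM, C and D of *X33*-YPA had 52.6 and 80.4 CPM, and E and F of *GS115*-YPAH5x had 2.71 and 2.81 CPM. It was high in both *X33* libraries and low in all 4 *GS115* libraries, with or without added histidine. The log2 fold change of gene4498 for *X33*-YPA was 4.05 ± 0.22 against *GS115*-YPA (edgeR adjusted p of 5.89e-07, place 13 from the highest) and 4.59 ± 0.23 against *GS115*-YPAH5x (edgeR adjusted p of 6.85e-06, 24.1-fold). No gene had a larger log2 fold change in the latter comparison. Between *GS115*-YPAH5x and *GS115*-YPA it was -0.54 ± 0.23 with an edgeR adjusted p of 0.0677, and it was called lower without library C (-0.58) or D (-0.58) and with upper-quartile scaling or library totals.

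The neighbour did not keep a fixed proportion to *AOX1*. For each count on gene4498 there were 2.81 and 2.60 counts on *AOX1* in libraries A and B, 7.06 and 5.35 in C and D, and 18.8 and 15.6 in E and F. The strand setting of the count was not given in the sources used here, and reads of transcripts that overlap on opposite strands could then not be told apart.

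The change at *AOX1* did not extend to all genes around it. The 5 genes before *AOX1* in the table were all called lower in *X33*-YPA against *GS115*-YPA (log2 fold changes of -1.79 to -0.71) and in *GS115*-YPAH5x (-1.46 to -0.73), and none of them passed the edgeR test between *X33*-YPA and *GS115*-YPAH5x. The nearest of them, gene4496, annotated as a polyamine oxidase, was at -0.71 ± 0.18 and -0.99 ± 0.18. On the other side of gene4498, gene4499, annotated as a hexaprenyl pyrophosphate synthetase, was called higher than in *GS115*-YPA in both groups, by 1.32 ± 0.14 and 0.62 ± 0.14. Between *X33*-YPA and *GS115*-YPAH5x it was higher by 0.69 ± 0.14, a call lost without library F. The gene after it, gene4500, fell by 1.64 for *X33*-YPA and by 1.69 for *GS115*-YPAH5x on the log2 scale. Around *AOX2*, the gene before it in the table, gene5262, annotated as a lysophospholipase, was called higher like *AOX2* in both groups, at 1.09 ± 0.15 for *X33*-YPA and 1.66 ± 0.15 for *GS115*-YPAH5x. The gene that follows *AOX2*, gene5264, was at 0.0090 and 2.97 in the same order, only the latter past the test, and gene5265 after it was called lower at -2.77 and higher at 1.13.

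**Figure D4:**
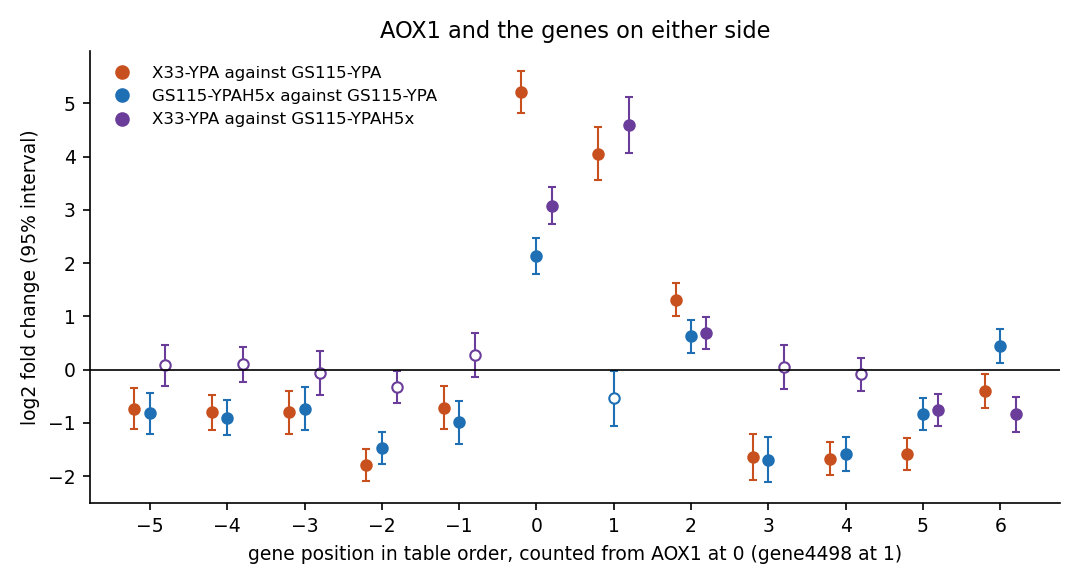
Log2 fold change with its 95% interval of *AOX1* (position 0) and of the genes around it in table order, from 5 before to 6 after, in the 3 comparisons (filled, adjusted p under 0.05). Between *X33*-YPA and *GS115*-YPAH5x, *AOX1* and gene4498 (position 1) stand at 3.08 and 4.59, and the others lie between -0.84 and 0.69.

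Over the 6 libraries, the levels most like those of *AOX1* were found outside methanol use. By Euclidean distance between mean-centred log2 CPM the nearest gene to *AOX1* was gene5229, a high-affinity copper transporter of the plasma membrane, at a distance of 1.67. It had 160 and 155 CPM in libraries A and B, 2943 and 2729 CPM in C and D, and 1134 and 965 CPM in E and F. Then came, at distances of up to 2.21, gene2282 with an NAD(P)-binding fold, the aldehyde dehydrogenase gene2504, gene2386 with no description, and gene789 with an FMN-binding fold. Picked for this likeness, these 5 genes had the group order of *AOX1*, highest in *X33*-YPA and lowest in *GS115*-YPA. By the same distance gene4498 came at place 24 of 5425 and *FDH1* at place 114, while *AOX2* and the other 4 enzyme genes lay between places 1007 and 3122. The 6 libraries form 3 groups, so this order rests largely on the group means, and Pearson correlation in place of the distance gave 5 other genes.

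Peroxisomes house the alcohol oxidases and dihydroxyacetone synthases. Of 41 peroxins and peroxisomal proteins, 14 (34.1%) were called higher and 12 (29.3%) lower in *X33*-YPA against *GS115*-YPA, beside 33.4% and 32.8% of all genes, with a median log2 fold change of -0.092 beside 0.013. For *GS115*-YPAH5x 13 (31.7%) were higher and 9 (22.0%) lower, beside 30.7% and 29.1% of all genes, with a median of -0.12 beside 0.00051. With all 6 libraries, the shares of higher calls were near those over all genes. The counts of both comparisons changed in fits without 1 library, which have no share over all genes beside them. The peroxisomal Lon protease (gene501) rose by 1.35 ± 0.14 and 1.04 ± 0.14 in the same order. A peroxisomal 2,4-dienoyl-CoA reductase (gene3274) rose by 1.21 ± 0.15 and 0.40 ± 0.15, the latter call lost without B, C, D, E (0.25) or F. Another gene with this annotation (gene4577), named after its values were seen, was highest in *GS115*-YPA. It had 38.7 and 28.6 CPM in A and B, 14.2 and 17.3 CPM in C and D, and 22.3 and 25.5 CPM in E and F. The receptor of the type 1 peroxisomal targeting signal (gene1871), which imports most matrix enzymes, fell by 1.27 ± 0.15 and 0.82 ± 0.15, and the membrane peroxin Pex24p (gene5095) fell by 1.34 ± 0.14 and 1.15 ± 0.14.

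Hydrogen peroxide, the by-product of alcohol oxidase, is removed by catalase and peroxidases, and of 9 such genes 3 were called higher and 5 lower in *X33*-YPA, beside 33.4% and 32.8% of all genes, with a median log2 fold change of -0.62 beside 0.013. In *GS115*-YPAH5x 2 were higher and 5 lower, beside 30.7% and 29.1% of all genes, with a median of -0.76 beside 0.00051. The thiol peroxidases gene480 (1.69 ± 0.14 and 1.15 ± 0.14) and gene999 (-2.34 ± 0.16 and -2.84 ± 0.16) went opposite ways, and so did the mitochondrial peroxiredoxins gene3355 (1.65 ± 0.13 in both) and gene780 (-1.41 ± 0.17 and -1.86 ± 0.17). Peroxisomal catalase (gene1803), named after its values were seen, had 215 and 410 CPM in A and B, 158 and 156 CPM in C and D, and 155 and 214 CPM in E and F. Catalase was called lower in both groups than in *GS115*-YPA, but without library B, where it stood high, its log2 fold changes were -0.46 and -0.22 and were not called, and the second call was also lost without E (-0.54).

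A list of 13 genes covered dihydroxyacetone kinase and the recycling of xylulose 5-phosphate, the acceptor used by *DAS1* and *DAS2*. Of these, 4 (30.8%) were called higher and 6 (46.2%) lower in *X33*-YPA, beside 33.4% and 32.8% of all genes. The median log2 fold change was -0.31 beside 0.013. For *GS115*-YPAH5x 1 was higher and 4 lower, beside 30.7% and 29.1% of all genes, with a median of -0.096 beside 0.00051. Leaving out library D lowered the counts for *X33*-YPA, and leaving out A, E or F changed those for *GS115*-YPAH5x. Those fits have no share over all genes beside them. Sedoheptulose 1,7-bisphosphatase (gene1861) rose by 0.88 ± 0.14 and a fructose bisphosphatase (gene3397) by 0.72 ± 0.15 in *X33*-YPA, where a fructose 1,6-bisphosphate aldolase (gene655) fell by 0.99 ± 0.17. Ribose-5-phosphate isomerase (gene5197) was at 0.47 ± 0.14 for *X33*-YPA (call lost without A, C or D) and -0.49 ± 0.14 for *GS115*-YPAH5x (call lost without F). Dihydroxyacetone kinase (gene3432), which acts after *DAS1* and *DAS2* and was named after its values were seen, was at -0.49 ± 0.14 for *X33*-YPA (call lost without D) and -0.26 ± 0.14 for *GS115*-YPAH5x.

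Of 15 alcohol and aldehyde dehydrogenases, which handle ethanol, acetaldehyde and related compounds, 7 (46.7%) were called higher and 8 (53.3%) lower in *X33*-YPA, beside 33.4% and 32.8% of all genes, with a median log2 fold change of -0.37 beside 0.013. In *GS115*-YPAH5x 7 were higher and 7 lower, beside 30.7% and 29.1% of all genes, with a median of 0.068 beside 0.00051. Here gene2504 was at 3.87 ± 0.18 and 2.87 ± 0.17, alcohol dehydrogenase 2 (gene2541) at 2.87 ± 0.15 and 2.35 ± 0.15, the cytosolic aldehyde dehydrogenase gene3263 at 1.89 ± 0.15 and 0.70 ± 0.14, and the NADPH-dependent alcohol dehydrogenase gene4356 at -3.52 ± 0.16 and -3.24 ± 0.16.

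Riboflavin and FAD synthesis supplies the cofactor of alcohol oxidase. Of its 8 genes, 2 (25%) were called higher and 2 (25%) lower in each comparison with *GS115*-YPA. The shares over all genes, 29.1% to 33.4%, were near these for a list of 8. The median log2 fold changes were 0.13 for *X33*-YPA and -0.089 for *GS115*-YPAH5x, beside 0.013 and 0.00051. For *X33*-YPA gene3209 lost its call without library C. For *GS115*-YPAH5x gene4197 lost its call without A, E or F, and gene255 without B, E or F. Riboflavin synthase (gene5337) fell by 1.43 ± 0.17 and 0.90 ± 0.17 and FAD synthetase (gene255) by 0.77 ± 0.16 and 0.51 ± 0.16, while the reductase gene4197 rose by 1.09 ± 0.23 and 0.68 ± 0.23. Lumazine synthase (gene3209) was at 0.59 ± 0.15 and -0.025, dihydroxybutanone phosphate synthase (gene4182) at -0.062 and 0.86 ± 0.15, and riboflavin kinase (gene4520), GTP cyclohydrolase 2 (gene2246) and the deaminase gene254 passed neither test, at -0.16 to 0.38.

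Regulators of methanol genes were sought by symbol or description as *MXR1*, *MIT1*, *TRM1*, *NRG1*, *ROP1* and *CAT8*, and the list held only 2 genes. Those 2, matched to *MIT1* and *CAT8*, had another order of groups than *AOX1*. The remaining names had no gene in the list and were not examined. *MIT1* (gene4078) encodes an activator of *AOX1* known from methanol-grown *K. phaffii*, and it had 297 and 438 CPM in A and B, 324 and 370 CPM in C and D, and 746 and 712 CPM in E and F. The other, gene2222, is a zinc cluster transcriptional activator matched to *CAT8*, which in *S. cerevisiae* switches on genes for growth on non-fermentable carbon. The study names Cat8-1 and Cat8-2 among the regulators of acetate metabolism in *K. phaffii*, and which of them gene2222 encodes was not determined. For gene2222 there were 16.4 and 20.4 CPM in A and B, 22.8 and 21.9 CPM in C and D, and 40.5 and 36.7 CPM in E and F. *MIT1* and gene2222 were both highest in *GS115*-YPAH5x, the group with the middle level of *AOX1*. The log2 fold changes for *GS115*-YPAH5x against *GS115*-YPA were 0.99 ± 0.19 for *MIT1* and 1.07 ± 0.15 for gene2222, with edgeR adjusted p-values of 0.00143 and 0.000222. For *X33*-YPA they were -0.082 and 0.28, neither past the test, although *MIT1* was called lower without library A (-0.38) and gene2222 higher without library B (0.44). Against *GS115*-YPAH5x, *X33*-YPA was lower by 1.07 ± 0.19 for *MIT1* and by 0.79 ± 0.15 for gene2222, with edgeR adjusted p-values of 0.0024 and 0.00338.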

How the data were processed

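RNA-seq was done on 6 *K. phaffii* libraries, 2 in each of 3 groups, and ribosomal RNA was removed beforehand with a bacterial kit. The authors deposited 1 table of raw read counts for 5427 genes with descriptions, which names no gene lengths. Tools that the submitters list in their notes, in no stated order, are featureCounts 1.6.4, DESeq2, Bowtie2, fastp 0.19.6 and bcl2fastq 2.19.0.316. The genome build, the strand setting and the treatment of reads with several matches were not given in the sources used here. Columns with the authors' own comparisons were not used.

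Counts were scaled by TMM and tested in edgeR 4.0.16 (R 4.3.3) with the quasi-likelihood test, all 6 libraries in 1 fit without covariates, after filterByExpr. The Benjamini-Hochberg adjustment ran over 5426 genes, and a gene was called at an adjusted p under 0.05. SE was derived from this fit as the absolute log2 fold change divided by the square root of the F statistic of the test. The 95% intervals are symmetric t intervals built on that SE. The 3 residual degrees of freedom of the fit were moderated across genes. The edgeR procedure was also run on counts simulated from the means and dispersions of the main fit, with 200 genes changed. In the data 41.4% to 66.2% of genes were called, a setting unlike the simulated one, so no conclusion is drawn from that run. DESeq2 1.42.0, limma-voom (limma 3.58.1), other scalings, filters and dispersions, fits of only 2 groups and fits without 1 library were the alternatives. TMM without the 10 most abundant genes, the summing of close copies and the leave-one-out counts of the lists were chosen after seeing the data.

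All 8 genes are named. Of each list, which was matched by description and trimmed by description once the table was read, the 4 genes with the smallest adjusted p are named, or all in lists of 8 or fewer, and so are the 5 genes nearest to *AOX1* on log2 CPM (prior count of 2). Genes flanking *AOX1* and *AOX2* were named after their values were seen. The genes and lists were chosen with earlier results of these data known. None of the 5427 locus tags matched the reference table at hand, so coordinates, lengths and sequences are not given, and shares and ratios of counts between genes are read only across libraries.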

Additional observations from a re-analysis of the deposited data

How the results depend on the processing

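*AOX1* kept every call under all 17 other settings (tool, scaling, filter, dispersion, samples fitted and each library left out), as did gene4498 in both comparisons with *X33*-YPA, and *AOX2* and *FDH1* in both with *GS115*-YPA. Adding the fold threshold left 2 genes called higher in *X33*-YPA against *GS115*-YPA, 1 in *GS115*-YPAH5x against *GS115*-YPA and 2 in *X33*-YPA against *GS115*-YPAH5x. With an adjusted p under 0.01 the latter counts were 3 and 2. Leaving out 1 library at a time gave 5 higher and 0 lower in the first comparison, 3 to 5 higher and 0 to 1 lower in the second, and 2 to 4 higher and 0 to 1 lower in the third. Library totals alone gave 3 higher and 1 lower in the second, upper-quartile scaling 1 lower there, and fitting only the 2 groups 1 lower in the third.

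Some small log2 fold changes changed sign. That of *DAS1* in *GS115*-YPAH5x was -0.21 to 0.0098 without 1 library. That of *DAS2* was -0.010 with upper-quartile scaling and -0.079 with library totals. Between *X33*-YPA and *GS115*-YPAH5x, *AOX2* ranged from -0.080 to 0.11 without 1 library and *FLD1* was 0.033 with library totals. Upper-quartile scaling and library totals moved the median of all genes in *GS115*-YPAH5x against *GS115*-YPA by -0.13 and -0.20, and in *X33*-YPA against *GS115*-YPAH5x by 0.13 and 0.27. With library totals 37.7% of calls were higher in the former, beside 51.4% with TMM. In the latter 61.3% were higher with upper-quartile scaling and 75.2% with library totals, beside 47.8%. None of the 5 genes nearest to *AOX1* by distance was among those by correlation (0 of 5). The cause of these changes was not tested. No paired analysis was possible because the groups share no replicate labels.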
